A study of Mus musculus with 10 samples.

Results

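Open chromatin was measured at the genes of 10 RNA-binding proteins in brain and lung: Elavl1, Elavl2, Elavl3, Elavl4, Rbfox1, Rbfox2, Rbfox3, Celf4, Nova1 and Nova2. A peak belonged to a gene if it overlapped the gene or lay within 5 kb of one of its ends, and the nearest gene end decided where several genes were in reach. By this rule 9 of the 10 genes had a peak, and the set held 29 of the 37513 peaks of the table. Elavl1 had no peak of its own, because the peak over its start lies closer to an end of its neighbour Ccl25. From general knowledge of the families, Elavl1 and Rbfox2 were taken as the broadly expressed genes and the other 8 as the brain-restricted ones.

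The samples were sections of fresh frozen tissue of wild-type mice of the inbred strain C57BL/6J, whose age the labels do not give. Tn5, the transposase that cuts open chromatin and leaves sequencing adapters there, was applied on the slide, and nuclei were then cut out by laser-capture microdissection. The groups were brain at about 200 nuclei (n = 2), brain at 50 nuclei (n = 2), lung at about 200 nuclei (n = 3) and lung at 50 nuclei (n = 3). A mini-bulk of 200 nuclei came from 10 captured areas of about 20 nuclei, and one of 50 nuclei from single nuclei, so size and mode of capture cannot be told apart. The nuclei were taken at random, so each library mixes all cell types of its section, and the labels speak of technical replicates without naming separate animals. The p-values therefore measure the spread between these libraries, which may be technical.

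RNA-binding proteins of these families decide how a transcript is spliced, how long it lasts and where it is translated. The ELAV-like proteins bind U-rich and AU-rich stretches of mRNA and tend to stabilise it. ELAVL1, also called HuR, is made in most cells, whereas ELAVL2, ELAVL3 and ELAVL4 are hallmarks of neurons. RBFOX proteins set the inclusion of alternative exons. RBFOX3 is the antigen NeuN used to stain neuronal nuclei, RBFOX1 is found in neurons and muscle, and RBFOX2 is found in many tissues. CELF4 binds mRNAs of synaptic proteins in neurons, and NOVA1 and NOVA2 are splicing regulators first known as antigens of a neurological autoimmune disease. NOVA2 has also been described in the endothelium of blood vessels.

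Reads in nuclear peaks numbered 319307 to 465489 in the 4 brain libraries and 340697 to 3075377 in the 6 lung libraries. Levels are reads of a peak per 1000000 nuclear-peak reads (RPM). A single read was worth 2.15 to 3.13 RPM in brain and 0.325 to 2.94 RPM in lung. Mitochondrial peaks took 93.4% to 95.8% of all reads in brain and 24.7% to 58.0% in lung, and do not enter RPM. Of the 29 peaks, 24 to 29 had at least 1 read in each brain library, against 24 or 25 in lung at 200 nuclei and 23, 12 and 14 in lung at 50 nuclei. Replicates 2 and 3 of lung at 50 nuclei stood apart over all nuclear peaks too, with a read in 60.9% and 56.1% of them, while the other libraries had one in 86.2% to 97.6%. Counts of called peaks and genes are therefore also given without these 2 libraries.

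The tissue labels were set against marker genes. The summed level of the neuron list, of which 7 of 9 genes had a peak and Nefl and Nefm had none, was 266 to 318 RPM in brain and 18.3 to 126 RPM in lung. On summed peaks 3 of these 7 genes were higher in brain and 0 in lung. Stmn2, with a log2 fold of -0.27, was among those not called. The endothelium list, with a peak at all 7 genes, was at 284 to 476 RPM in brain and 981 to 1466 RPM in lung. The astrocyte list, without peaks at Aldh1l1 and Aqp4, was at 219 to 288 RPM in brain and 23.5 to 57.1 RPM in lung. Most of its sum in brain came from Kcnj10, at 201 RPM in brain and 8.29 RPM in lung. Kcnj10 was the 1 gene of 4 with a peak that was called. Gfap was at 17.0 RPM in brain and 15.1 RPM in lung. These 3 lists did not overlap between the tissues, and their part in the results below was not tested. The microglia list, without a peak at Cx3cr1, was at 25.1 to 60.2 RPM in brain and 29.9 to 67.5 RPM in lung. The oligodendrocyte list, with a peak at 4 of 8 genes, was at 256 to 397 RPM in brain and 129 to 287 RPM in lung, which overlap. The list for neuroendocrine cells of the airway, with a peak at 4 of 8 genes, was at 197 to 253 RPM in brain and 51.1 to 220 RPM in lung, which also overlap. In each of these 2 lists, 2 genes were higher in brain on summed peaks, beside 5.41% of all genes. The list for alveolar epithelium, without Sftpc, was at 59.5 to 95.8 RPM in brain and 93.1 to 164 RPM in lung. In such mixed samples, more nuclei with an open site and more cuts per nucleus cannot be told apart.

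The starts of 3 ELAV-like genes show how differently a peak can sit on a promoter, and their sequences are given here because the results return to them. RefSeq windows of GRCm38.p6, the assembly also known as mm10, were matched to 8 of the 10 genes by symbol, all but Rbfox2 and Celf4. Each window runs from 250 bases before a start to 50 bases after it, 300 in all, and is printed 5′ to 3′ on the strand of the gene. Capitals mark the bases under a peak. The Elavl3 window is chr9:22051974-22052273, minus strand, the Elavl2 window is chr4:91376447-91376746, minus strand, and the Elavl1 window is chr8:4325051-4325350, minus strand.

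Elavl3: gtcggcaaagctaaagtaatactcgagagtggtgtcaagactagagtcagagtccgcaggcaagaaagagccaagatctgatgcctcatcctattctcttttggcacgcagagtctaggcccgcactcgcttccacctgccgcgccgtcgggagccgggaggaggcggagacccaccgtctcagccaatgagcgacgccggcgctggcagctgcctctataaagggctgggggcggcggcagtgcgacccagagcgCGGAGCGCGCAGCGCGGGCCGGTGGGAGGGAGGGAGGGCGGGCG

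Elavl2: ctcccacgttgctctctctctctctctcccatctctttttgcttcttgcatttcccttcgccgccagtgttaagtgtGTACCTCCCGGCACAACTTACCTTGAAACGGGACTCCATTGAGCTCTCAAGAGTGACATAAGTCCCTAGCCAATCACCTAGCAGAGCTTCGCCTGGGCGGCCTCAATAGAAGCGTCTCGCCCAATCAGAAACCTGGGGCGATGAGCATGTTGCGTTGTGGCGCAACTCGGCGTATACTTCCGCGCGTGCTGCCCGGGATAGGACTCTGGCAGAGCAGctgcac

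Elavl1: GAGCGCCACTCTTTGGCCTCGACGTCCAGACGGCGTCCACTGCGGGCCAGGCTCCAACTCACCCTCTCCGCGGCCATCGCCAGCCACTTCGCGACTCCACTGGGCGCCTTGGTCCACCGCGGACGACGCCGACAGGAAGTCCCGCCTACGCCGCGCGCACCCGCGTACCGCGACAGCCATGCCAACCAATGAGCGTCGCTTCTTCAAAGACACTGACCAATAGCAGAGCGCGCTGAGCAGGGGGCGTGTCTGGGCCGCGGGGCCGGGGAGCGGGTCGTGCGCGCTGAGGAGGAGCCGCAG

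The Elavl3 peak covered only the last 44 bases of its window, downstream of the start. At Elavl2 the peak covered 217 bases around an internal start, and at Elavl1 the shared peak covered all 300. The windows had a GC content of 65.3%, 56.0% and 70.0%, in the order Elavl3, Elavl2, Elavl1, against a median of 52.7% over all 32851 windows of the table. They held 29, 18 and 39 CpG dinucleotides in the same order, against a median of 7. Short motifs were searched on both strands. The TATA box letters TATAAA stand once in the Elavl3 window, with the first base of the match at position -33 from the start, in neither of the other 2 windows, and in 13.6% of all windows. The CCAAT box letters CCAAT stand once in the Elavl3 window, outside the peak, and 2 times each in the Elavl2 and Elavl1 windows under the peak, and in 37.4% of all windows. The GC box letters GGGCGG stand 2 times in the Elavl3 window, 1 of them under the peak, once in the Elavl2 window under the peak and not in the Elavl1 window, against 35.7% of all windows. The 2 conserved parts of RE1, the element bound by the repressor REST, were searched as TTCAGCACC and GGACAGCGC. They stand in 0.371% and 0.405% of all windows and in none of the 17 windows of the 8 genes. A match or its absence describes only these letters in these windows.

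Of the 29 peaks, 6 were higher in brain and 1 was higher in lung at an adjusted p of 0.05. The 6 peaks lie at Elavl3 (2 peaks), Elavl4, Rbfox1, Rbfox3 and Nova1, and the peak higher in lung lies at Nova2. These are 20.7% and 3.45% of the 29, where among all tested peaks 5.78% were higher in brain and 4.35% higher in lung. All 7 belonged to the 22 peaks of the brain-restricted genes, and none of the 7 peaks of Rbfox2 was called. On so few peaks, none called is near the shares of all peaks and is not a result about Rbfox2. The median log2 fold of brain over lung was 1.13 for the peaks of the brain-restricted genes and 0.07 for those of Rbfox2, beside 0.07 for all 37466 peaks tested, whose quartiles were -0.91 and 0.94. At an unadjusted p of 0.05, 14 of the 29 peaks passed, 4 of them among the 7 Rbfox2 peaks, where 25.1% of all peaks did. DESeq2 called 7 of the 29 higher in brain, beside 9.04% of all peaks, and 2 higher in lung, beside 5.68% of all. Without replicates 2 and 3 of lung at 50 nuclei, 8 of the 29 were higher in brain, beside 9.97% of all peaks, and 3 were higher in lung, beside 12.3% of all. Leaving out replicate 2 of brain at 200 nuclei or replicate 1 of brain at 50 nuclei left 4 peaks higher in brain, beside 2.97% and 2.64% of all peaks, and leaving out replicate 1 of lung at 50 nuclei gave 10, beside 14.0% of all. Without replicate 2 or without replicate 3 of lung at 50 nuclei, 2 peaks were higher in lung, beside 6.25% and 8.59% of all.

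**Figure D1:**
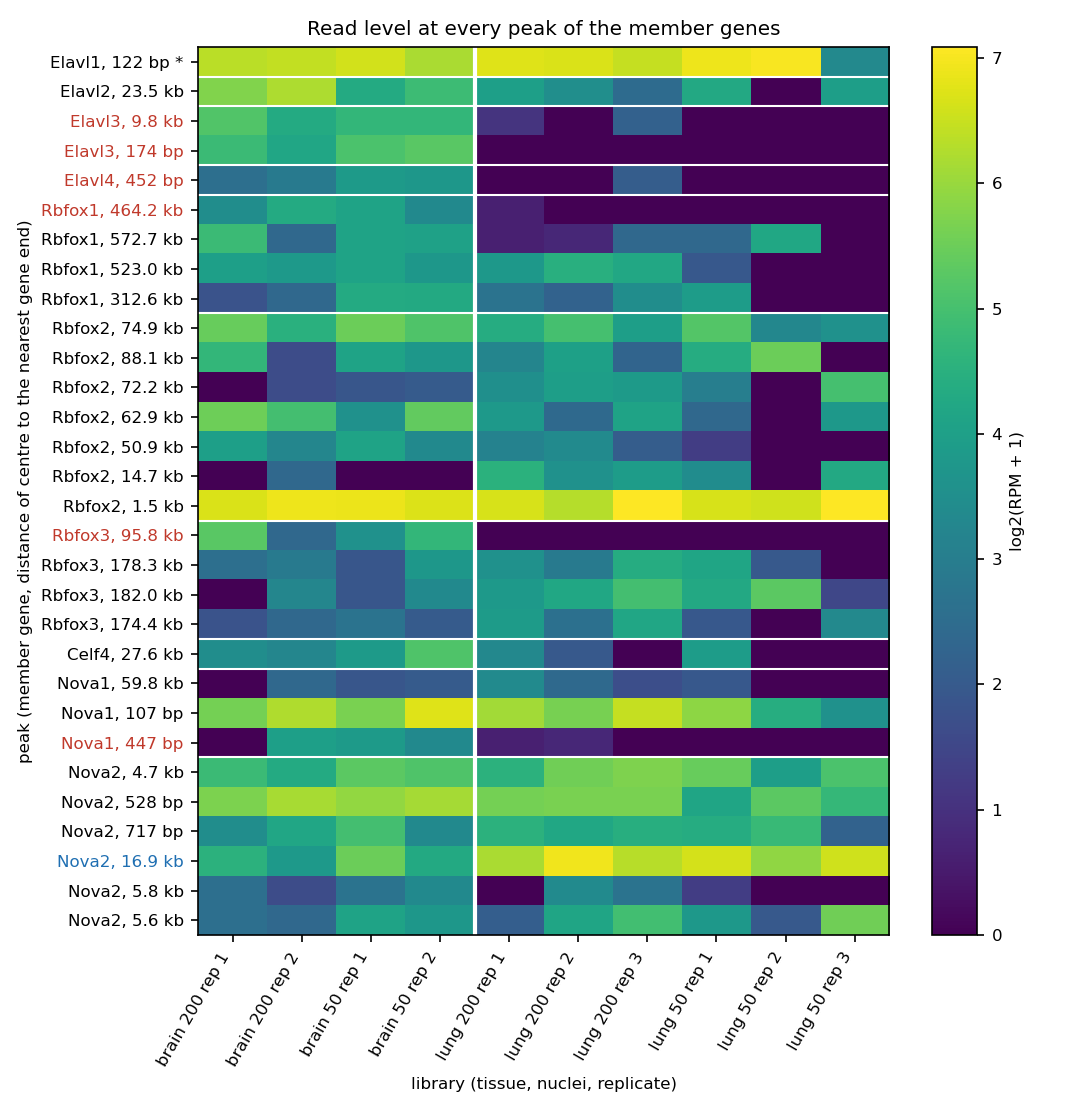
Level of each peak of the 9 genes, and of the peak shared by Elavl1 and Ccl25 (asterisk), in each of the 10 libraries as log2(RPM + 1). Rows give the gene and the distance of the peak centre from the nearest gene end, columns give tissue, number of nuclei and replicate with brain left of lung, and row names in red or blue mark peaks higher in brain or in lung; the red rows are dark across nearly all lung columns.

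Some of the groups did not overlap at all. In 7 of the 29 peaks every brain library lay above every lung library, as did 8.4% of all peaks tested, and in 1 peak every brain library lay below every lung library, as did 4.94% of all. The 7 were both Elavl3 peaks, the Elavl2 peak, the Elavl4 peak, a peak each of Rbfox1 and Rbfox3 that were called, and the Nova2 peak nearest its start. The 1 was the Nova2 peak that was higher in lung.

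The 6 peaks higher in brain were small. They were 90 to 136 bp wide, with a median of 107.5 bp, and held 17 to 53 reads over all 10 libraries. Over the whole table the medians were 130 bp and 56 reads for peaks higher in brain, 312 bp and 393 reads for peaks higher in lung, and 164 bp and 120 reads for all tested peaks. The Nova2 peak was 397 bp wide with 716 reads. A stricter filter on low counts, edgeR's filterByExpr, kept 23 of the 29 peaks and removed all 6 that were higher in brain, leaving 0 such calls and the Nova2 call.

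**Figure D2:**
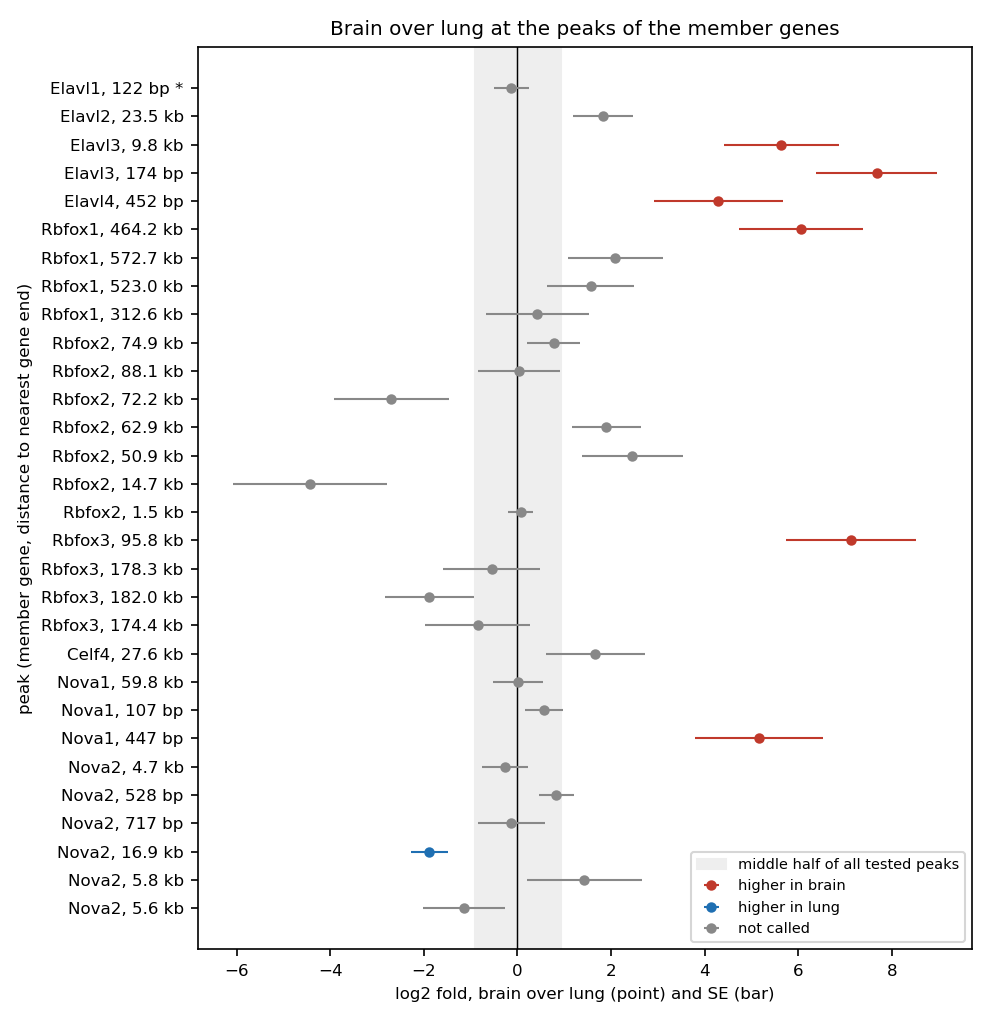
Model log2 fold of brain over lung (points) with its SE (bars) for each peak, named by gene and distance to the nearest gene end. The grey band spans -0.91 to 0.94, the lower to the upper quartile of all tested peaks; red points are higher in brain, the blue one is higher in lung, and the asterisk marks the peak shared by Elavl1 and Ccl25.

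Elavl3, which encodes the neuronal protein HuC, had the peak with the lowest adjusted p of the set. Its promoter peak at chr9:22051927-22052017, centred 51 bp downstream of the start and with Zfp653 also in reach, is the one marked by capitals in the Elavl3 sequence. It had 27.6 and 17.2 RPM in the brain libraries of 200 nuclei and 32.8 and 37.6 RPM in those of 50 nuclei, and 0 reads in all 6 lung libraries. A count of 0 allows a limit of 3 reads over the pooled lung libraries. Against it the 43 reads in brain, taken as exact, put the level at least 72.5-fold higher in brain. This covers the counting error of lung only, not that of brain or the spread between libraries. The peak reached the minimum of 10 reads over all libraries through its brain reads alone, so this limit only describes it. The model gave a log2 fold of 7.68 ± 1.29 (SE, adjusted p = 0.000153), a size that depends on the fit's prior count because lung is at 0.

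The other Elavl3 peak, chr9:22024752-22024873, lies inside the gene, 9807 bp from its end away from the start. It had 35.1 and 19.3 RPM in brain at 200 nuclei and 24.6 and 25.1 RPM in brain at 50 nuclei. In lung the values were 1.11, 0 and 3.58 RPM at 200 nuclei and 0, 0 and 0 RPM at 50 nuclei. All brain libraries lay far above all lung libraries, with a log2 fold of 5.64 ± 1.24 (adjusted p = 0.00225). Summed over both peaks, Elavl3 was at 54.8 ± 12.4 RPM (SD, n = 4) in brain, against 0.781 ± 1.44 RPM in lung (SD, n = 6).

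Elavl4, which encodes HuD, had a single peak at chr4:110351419-110351555, inside the gene and centred 424 bp downstream of a listed start. It had 5.01 and 6.44 RPM in brain at 200 nuclei and 13.7 and 12.5 RPM in brain at 50 nuclei. In lung a single library, replicate 3 at 200 nuclei, had reads there, at 3.25 RPM, and the other 5 were at 0. The groups did not overlap, and the log2 fold was 4.30 ± 1.38 (adjusted p = 0.0391). This call was lost in 7 of 10 fits that each left out 1 library, with an adjusted p of up to 0.13. It held without replicate 1 or 3 of lung at 50 nuclei or without replicate 3 of lung at 200 nuclei. DESeq2 gave an adjusted p of 0.0609.

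Elavl2, which encodes HuB, also had a single peak, chr4:91376453-91376669, over internal starts 23547 bp from the nearer gene end. It had 52.7 and 73.0 RPM in brain at 200 nuclei and 19.2 and 28.2 RPM in brain at 50 nuclei. Lung libraries held 15.0, 10.2 and 4.55 RPM at 200 nuclei and 18.5, 0 and 14.6 RPM at 50 nuclei. Every brain library was above every lung library, by a narrow margin at 50 nuclei, and the log2 fold of 1.83 ± 0.64 missed the threshold (adjusted p = 0.0586). The adjusted p was 0.0129 with DESeq2, 0.0391 with RLE size factors, 0.0248 without replicate 1, 0.0414 without replicate 2 and 0.0138 without replicate 3 of lung at 50 nuclei, so the call turns on these choices.

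The broadly expressed Elavl1 could be described only through the shared peak chr8:4325015-4325510, which is 495 bp wide and covers the whole printed Elavl1 window. Its reads cannot be divided between Elavl1 and Ccl25, a chemokine gene whose end lies under it. It had 80.2 and 85.9 RPM in brain at 200 nuclei and 95.8 and 72.0 RPM in brain at 50 nuclei. The lung libraries had 107, 102 and 88.1 RPM at 200 nuclei and 119, 129 and 9.13 RPM at 50 nuclei. The tissues overlapped, with a log2 fold of -0.14 ± 0.37 (adjusted p = 0.857). Leaving out 1 library at a time moved this fold between -0.41 and 0.21. The ELAV-like genes thus ranged from lung at 0 for the Elavl3 promoter peak to overlapping tissues at the start of Elavl1.

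**Figure D3:**
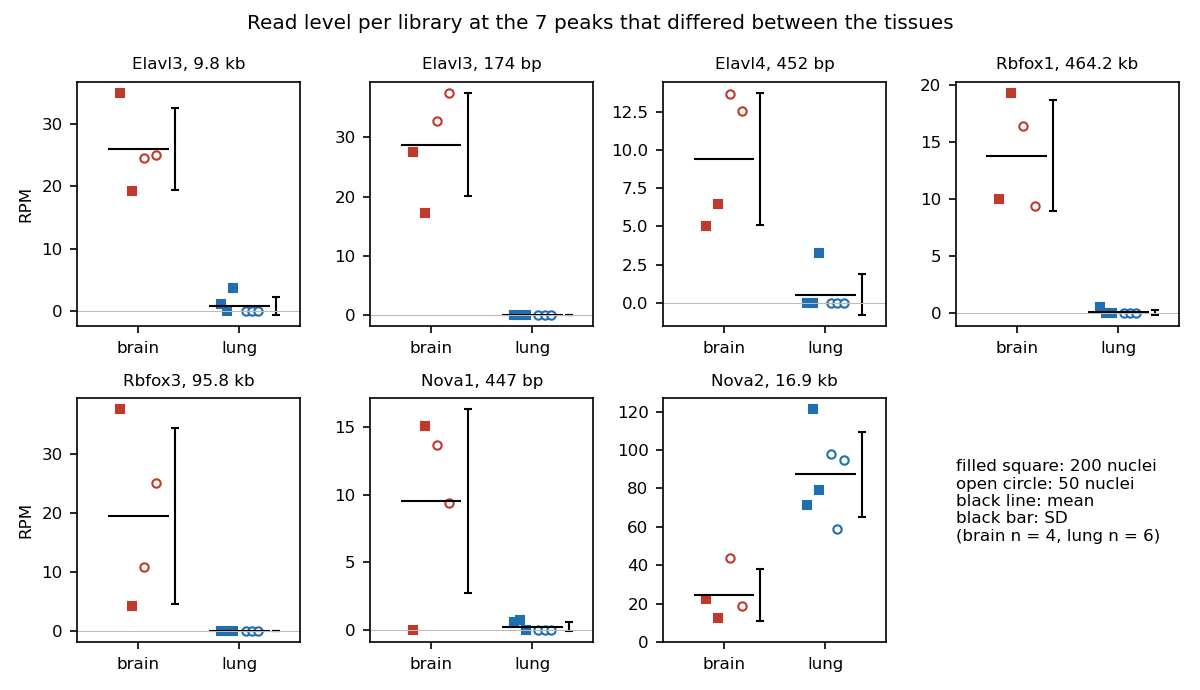
RPM in each library at the 7 peaks called between brain and lung, with brain left of lung in each panel and its own linear scale per panel. Filled squares are libraries of about 200 nuclei, open circles of 50 nuclei, and black lines with bars show the mean and SD; the Nova2 peak is the one panel with lung above brain, and the Nova1 panel has a brain library at 0.

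Among the RBFOX genes, Rbfox1 had 4 peaks, all deep inside a very long gene, between 312589 and 572701 bp from its nearer end. The peak chr16:6348980-6349070 had 10.0 and 19.3 RPM in brain at 200 nuclei and 16.4 and 9.40 RPM in brain at 50 nuclei. Lung had reads only in replicate 1 at 200 nuclei, at 0.554 RPM. The log2 fold was 6.06 ± 1.33 (adjusted p = 0.00228), and the call held in all 10 fits without 1 library. The other 3 peaks had log2 folds of 2.09, 1.57 and 0.42 and were not called. The most deeply covered of them, chr16:6889348-6889557, averaged 14.2 ± 1.84 RPM in brain (SD, n = 4) and 9.17 ± 9.47 RPM in lung (SD, n = 6). The one nearest a listed start, chr16:7099821-7099961, averaged 11.2 ± 9.02 RPM in brain and 5.58 ± 5.67 RPM in lung.

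Rbfox3, the NeuN gene, had 4 peaks of unlike pattern. The peak chr11:118585483-118585585, inside the gene and 95774 bp from its nearer end, had 37.6 and 4.30 RPM in brain at 200 nuclei and 10.9 and 25.1 RPM in brain at 50 nuclei. No lung library had a read there. The 29 reads in brain, taken as exact, put the level at least 48.9-fold higher there, against the limit of 3 reads over the pooled lung libraries. This too covers the counting error of lung only, at a peak that reached the minimum of 10 reads through brain alone. The model gave a log2 fold of 7.13 ± 1.39 (adjusted p = 0.000749). The brain libraries spread widely, yet the call held in all 10 fits without 1 library. The other 3 Rbfox3 peaks had log2 folds of -0.55, -1.88 and -0.85, none of them called. At the deepest of these, chr11:118729478-118729703, the level was 5.18 ± 4.55 RPM in brain and 20.0 ± 12.8 RPM in lung, and without replicate 3 of lung at 50 nuclei the fold of -2.16 passed (adjusted p = 0.034). At chr11:118737154-118737265, the peak nearest the listed start, it was 3.85 ± 1.31 RPM in brain and 8.03 ± 6.63 RPM in lung. Summed over its 4 peaks Rbfox3 therefore showed no difference that passed, at 35.2 ± 14.5 RPM in brain and 37.6 ± 18.4 RPM in lung (log2 fold -0.25 ± 0.49, adjusted p = 0.80).

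Rbfox2, the broadly expressed member of the family, had 7 peaks, all inside the gene. The highest, chr15:77306543-77307299, is 756 bp wide and lies 1513 bp from a gene end. It had 103 and 118 RPM in brain at 200 nuclei and 118 and 103 RPM in brain at 50 nuclei. In lung the values were 99.7, 77.6 and 133 RPM at 200 nuclei and 101, 93.9 and 135 RPM at 50 nuclei. The tissues overlapped throughout, with a log2 fold of 0.07 ± 0.27 (adjusted p = 0.905). The smaller Rbfox2 peaks went both ways without passing. The lowest fold was at chr15:77293606-77293786, at 1.07 ± 2.15 RPM in brain and 12.6 ± 7.67 RPM in lung (log2 fold -4.43 ± 1.64, adjusted p = 0.0792). On the other side chr15:77245437-77245672 averaged 31.7 ± 15.2 RPM in brain, against 8.50 ± 6.46 RPM in lung (log2 fold 1.90 ± 0.74, adjusted p = 0.0954). Summed over its 7 peaks Rbfox2 was at 207 ± 18.1 RPM in brain and 180 ± 22.5 RPM in lung (log2 fold 0.03 ± 0.17, adjusted p = 0.935).

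Celf4 had 1 peak, chr18:25505136-25505264, inside the gene and 27580 bp from its nearer end. It had 10.0 and 8.59 RPM in brain at 200 nuclei and 13.7 and 34.4 RPM in brain at 50 nuclei. Lung libraries held 8.87, 2.93 and 0 RPM at 200 nuclei and 14.2, 0 and 0 RPM at 50 nuclei. Brain and lung overlapped, through replicate 1 of lung at 50 nuclei and replicate 1 of lung at 200 nuclei, and the log2 fold was 1.66 ± 1.06 (adjusted p = 0.333). Without replicate 1 of lung at 50 nuclei the fold was 4.42 and passed (adjusted p = 0.0466).

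Nova1 had a large peak at its end and a small one just outside it. The large peak, chr12:46819393-46819781, had 47.6 and 75.2 RPM in brain at 200 nuclei and 49.3 and 106 RPM in brain at 50 nuclei. The lung libraries had 68.2, 48.3 and 88.1 RPM at 200 nuclei and 58.3, 20.5 and 11.0 RPM at 50 nuclei. The tissues overlapped, with a log2 fold of 0.57 ± 0.40 (adjusted p = 0.386). Without replicate 1 of lung at 50 nuclei this fold was 1.26 and passed (adjusted p = 0.0313). The small peak, chr12:46819871-46819984, lies 391 bp outside the gene and 1160 bp upstream of the listed start. It had 0 and 15.0 RPM in brain at 200 nuclei and 13.7 and 9.40 RPM in brain at 50 nuclei, on 17 reads over all 10 libraries. In lung, replicates 1 and 2 at 200 nuclei had 0.554 and 0.732 RPM and the other 4 libraries had 0. The groups overlap at 0, and the log2 fold was 5.16 ± 1.37 (adjusted p = 0.012). The call was lost without replicate 1 of brain at 50 nuclei (adjusted p = 0.0512), without replicate 2 of brain at 200 nuclei, where the remaining library of that group is at 0 (adjusted p = 1.00), and without replicate 3 of lung at 200 nuclei (adjusted p = 0.0524). The third Nova1 peak, inside the gene, had 36 reads and a log2 fold of 0.02.

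Nova2 was the only gene of the set with a peak called in lung. That peak, chr7:18948221-18948618, lies inside the gene, 16900 bp from its nearer end and 22531 bp downstream of the listed start. It had 22.6 and 12.9 RPM in brain at 200 nuclei and 43.8 and 18.8 RPM in brain at 50 nuclei. In lung the values were 71.5, 122 and 79.0 RPM at 200 nuclei and 98.1, 58.7 and 94.9 RPM at 50 nuclei. All brain libraries lay below all lung libraries, with a log2 fold of -1.88 ± 0.39 (adjusted p = 0.00132), and the call held in all 10 fits without 1 library. The endothelial marker list was also lower in brain, and 7 of its 7 genes were called lower on summed peaks, beside 7.13% of all genes. The part of this list in the Nova2 result was not tested.

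The Nova2 peak nearest the listed start, chr7:18925239-18925482, pointed the other way. It lies 406 bp outside the gene and had 50.1 and 70.9 RPM in brain at 200 nuclei and 60.2 and 68.9 RPM in brain at 50 nuclei. Lung libraries held 47.7, 49.8 and 49.8 RPM at 200 nuclei and 17.1, 38.2 and 25.6 RPM at 50 nuclei. Every brain library lay above every lung library, by a narrow margin, but the log2 fold of 0.83 ± 0.38 did not pass (adjusted p = 0.159). Without replicates 2 and 3 of lung at 50 nuclei it was 1.04 and passed (adjusted p = 0.0177). The other 4 Nova2 peaks had log2 folds between -1.14 and 1.43, none called. One of them, chr7:18921089-18921333, is the peak closest to the 5 kb limit from inside, at 4555 bp from the gene, with 29.9 ± 8.34 RPM in brain and 35.1 ± 14.3 RPM in lung. The closest peak outside the limit, chr8:4275866-4276171, is 8610 bp from Elavl1 and assigned to Timm44, and it averaged 42.5 ± 19.4 RPM in brain and 29.9 ± 11.7 RPM in lung.

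With the peaks of each gene summed, Elavl3 was the only one of the 9 genes called, with a log2 fold of 6.59 ± 0.99 (adjusted p = 0.000614). Over all 12672 genes with a peak, 5.41% were higher in brain and 7.13% higher in lung. The shares of all genes with libraries left out are not given here, so the counts at the end of this paragraph lack them. Elavl4 had a log2 fold of 4.18 ± 1.43 (adjusted p = 0.0699), Elavl2 one of 1.66 (adjusted p = 0.108), Celf4 one of 1.53 (adjusted p = 0.391) and Rbfox1 one of 1.40 ± 0.56 (adjusted p = 0.12). Summed Rbfox1 levels were 55.2 ± 11.3 RPM in brain and 19.4 ± 10.9 RPM in lung. Nova1 summed to 81.7 ± 31.5 RPM in brain and 52.4 ± 31.4 RPM in lung (log2 fold 0.56, adjusted p = 0.417). Nova2 was the lowest, at 149 ± 33.6 RPM in brain and 200 ± 43.9 RPM in lung (log2 fold -0.62 ± 0.20, adjusted p = 0.0533), a sum over peaks with folds of either sign. The count of genes called was 2 without replicate 1 of lung at 50 nuclei, without replicate 2 of it, without replicate 1 of lung at 200 nuclei or without replicate 3 of it, and 4 without replicate 3 of lung at 50 nuclei or without replicates 2 and 3 of it.

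Per kb of peak, a scale that depends on how wide the peaks were called, Elavl3 ranked highest in brain at 260 RPM per kb, against 3.70 in lung. Its peaks span 211 bp and those of Rbfox2 1770 bp. Without this division Elavl3, at 54.8 RPM in brain, was below Rbfox2 (207), Nova2 (149), Nova1 (81.7) and Rbfox1 (55.2). The order below holds per kb of peak only. Elavl2 followed with 200 RPM per kb in brain and 48.5 in lung, then Nova1 with 138 in brain and 88.6 in lung, and Celf4 with 130 in brain and 33.9 in lung. Rbfox2 stood at 117 RPM per kb in brain and 101 in lung, Nova2 at 112 in brain and 151 in lung, and Rbfox1 at 100 in brain and 35.3 in lung. Elavl4, at 69.2 RPM per kb in brain and 3.98 in lung, and Rbfox3, at 66.0 in brain and 70.5 in lung, were the least open in brain. The brain SD over 4 libraries was 59.0 RPM per kb for Elavl3, 113 for Elavl2, 53.2 for Nova1, 94.0 for Celf4, 10.2 for Rbfox2, 25.3 for Nova2, 20.5 for Rbfox1, 31.8 for Elavl4 and 27.2 for Rbfox3, so no gene differed from the next in this order beyond their spread. In lung the order was different, with Nova2 highest and Elavl3 and Elavl4 lowest.

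The brain-restricted genes together summed to 399 to 517 RPM in brain and 220 to 438 RPM in lung, and Rbfox2 to 187 to 231 RPM in brain and 147 to 208 RPM in lung. The ratio of the brain-restricted sum to Rbfox2 within a library was 1.73 to 2.54 in brain and 1.15 to 2.35 in lung, so the tissues overlapped. Nova1 and Nova2 together held 168 to 272 RPM of that sum in brain and 161 to 326 RPM in lung. Without them, a split chosen after the values were seen and described with no test, the sum was 189 to 244 RPM in brain and 25.6 to 112 RPM in lung. Its ratio to Rbfox2 was then 0.934 to 1.20 in brain and 0.123 to 0.561 in lung, with no overlap.

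**Figure D4:**
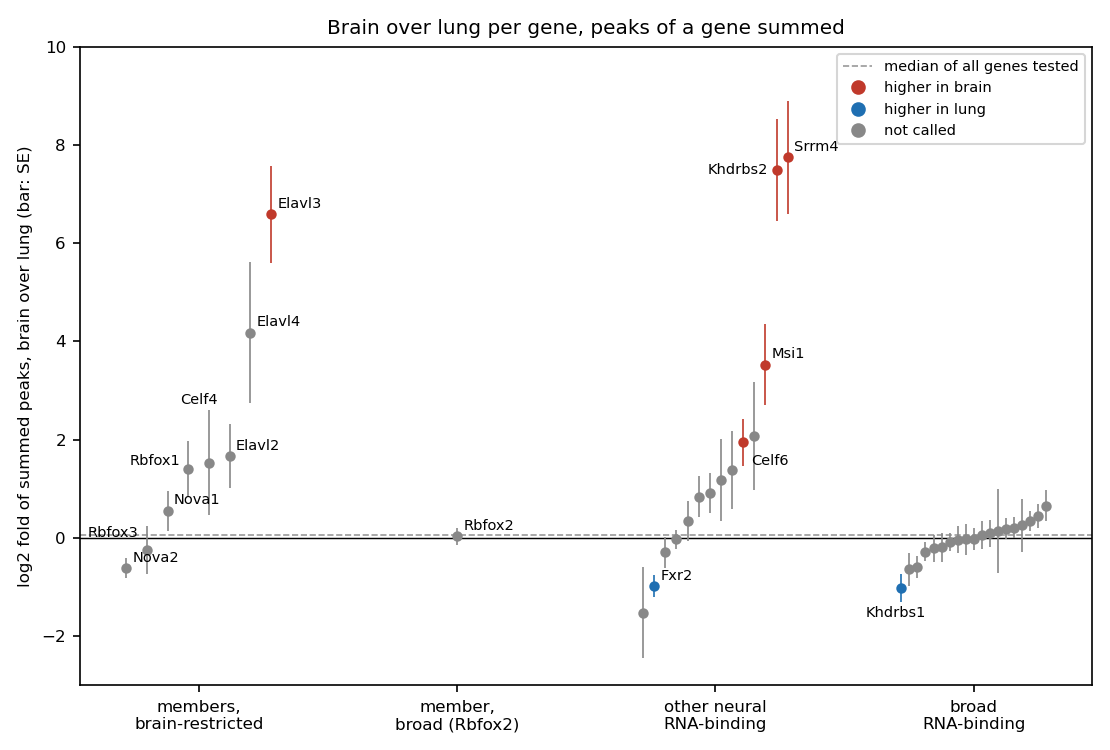
Model log2 fold of brain over lung (points) with its SE (bars) per gene, with all peaks of a gene summed, for the 9 genes with a peak and for 2 lists of other RNA-binding protein genes. The dashed line at 0.05 is the median of all genes tested; Elavl3 stands far above it and Rbfox2 on it, while the broad list at the right lies close to the line.

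Other genes for RNA-binding proteins gave a frame for these values. Of 15 genes with neural roles, 14 had a peak (Celf3 had none). On summed peaks 4 were higher in brain and 1 in lung, beside 5.41% and 7.13% of all genes. Their median log2 fold was 1.04 beside 0.05 for all genes. Of their 36 peaks, 6 (16.7%) were higher in brain and 1 (2.78%) in lung, beside 5.78% and 4.35% of all tested peaks. The 29 peaks of the set had 20.7% and 3.45%. Srrm4, a neuronal splicing factor of microexons, was at 31.9 ± 8.48 RPM in brain and at 0 in all 6 lung libraries (adjusted p = 0.000854). Khdrbs2, a splicing regulator of the STAR family, was at 61.5 ± 17.4 RPM in brain and 0.366 ± 0.897 RPM in lung (log2 fold 7.50 ± 1.04, adjusted p = 0.000321). Msi1, a translation regulator of neural progenitors, was at 33.2 ± 11.2 RPM in brain and 2.26 ± 2.34 RPM in lung (log2 fold 3.53 ± 0.82, adjusted p = 0.00875). Celf6 was the fourth gene higher in brain (log2 fold 1.94 ± 0.47, adjusted p = 0.0119). Fxr2, a paralogue of the fragile X gene Fmr1, went the other way, at 156 ± 56.0 RPM in brain and 279 ± 56.9 RPM in lung (log2 fold -0.99 ± 0.22, adjusted p = 0.00755).

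Of 21 broadly expressed genes for RNA-binding proteins, 19 had a peak (Hnrnpa2b1 and Hnrnpk had none). With a median log2 fold of -0.02, 0 were higher in brain and 1 in lung, beside 5.41% and 7.13% of all genes. That gene was Khdrbs1, which encodes SAM68, at 82.5 ± 8.01 RPM in brain and 151 ± 66.3 RPM in lung (log2 fold -1.02 ± 0.29, adjusted p = 0.0264). The next lowest p-values were those of Msi2 (log2 fold -0.59, adjusted p = 0.0954), Celf2 (0.65, adjusted p = 0.205) and Hnrnpa1 (-0.64, adjusted p = 0.245). Of the 62 peaks of these genes, 3 were higher in brain (4.84%, near the 5.78% of all tested peaks) and 0 in lung, beside 4.35% of all. Celf2 had 2 of the 3, the first of them, chr2:6653369-6653460, at 16.0 ± 6.94 RPM in brain and 0.163 ± 0.398 RPM in lung (log2 fold 5.82 ± 1.32, adjusted p = 0.00317).

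The tissue difference was also taken at each mini-bulk size. At about 200 nuclei 3 of the 29 peaks were called, beside 2.23% of all peaks, and at 50 nuclei 1 was called, beside 1.41% of all. The 3 were the Elavl3 promoter peak (log2 fold 7.36 ± 1.64, adjusted p = 0.0114), the Rbfox3 peak at 118585483 (7.24 ± 1.76, adjusted p = 0.0203) and the Nova2 peak in the gene (-2.44 ± 0.57, adjusted p = 0.0135). At 50 nuclei it was the Elavl3 promoter peak again (7.99 ± 2.03, adjusted p = 0.0376). These counts rest on single libraries. The shares of all peaks called at each size in the fits that follow are not given here. A change in the set therefore cannot be told from a change over the whole table. At about 200 nuclei they were 0 without replicate 1 or 2 of brain, or without replicate 2 or 3 of lung, at that size, 1 without replicate 1 of lung at that size, and 5 and 6 without replicates 2 and 3 of lung at 50 nuclei. At 50 nuclei the count was 5 without replicate 1 and 2 without replicate 3 of lung at that size, and 0 without any one of the 4 brain libraries or of the 3 lung libraries of 200 nuclei. With replicates 2 and 3 of lung at 50 nuclei both left out, the counts were 8 at about 200 nuclei and 4 at 50 nuclei.

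No peak of the set was called for mini-bulk size. The test of whether the tissue difference changed with size called 0 of the 29, beside 0% of all peaks, with 1 peak at an unadjusted p of 0.05, the Rbfox1 peak at 6889348, against 1531 of all peaks. Between 200 and 50 nuclei in brain 0 were called, beside 0% of all, with 0 of the 29 and 423 of all peaks at an unadjusted p of 0.05. In lung 0 were called, beside 0% of all, with 4 of the 29 and 3067 of all peaks at an unadjusted p of 0.05. The 4, each higher at 200 nuclei, were the same Rbfox1 peak (log2 fold 3.90 ± 1.33), the Rbfox2 peak at 77257528 (3.39 ± 1.59), the large Nova1 peak (1.29 ± 0.51) and the Nova2 peak near its start (1.15 ± 0.49). DESeq2 also called 0 of the 29 in each of these 3 comparisons, and 0, 0 and 2 of all peaks.

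**Figure D5:**
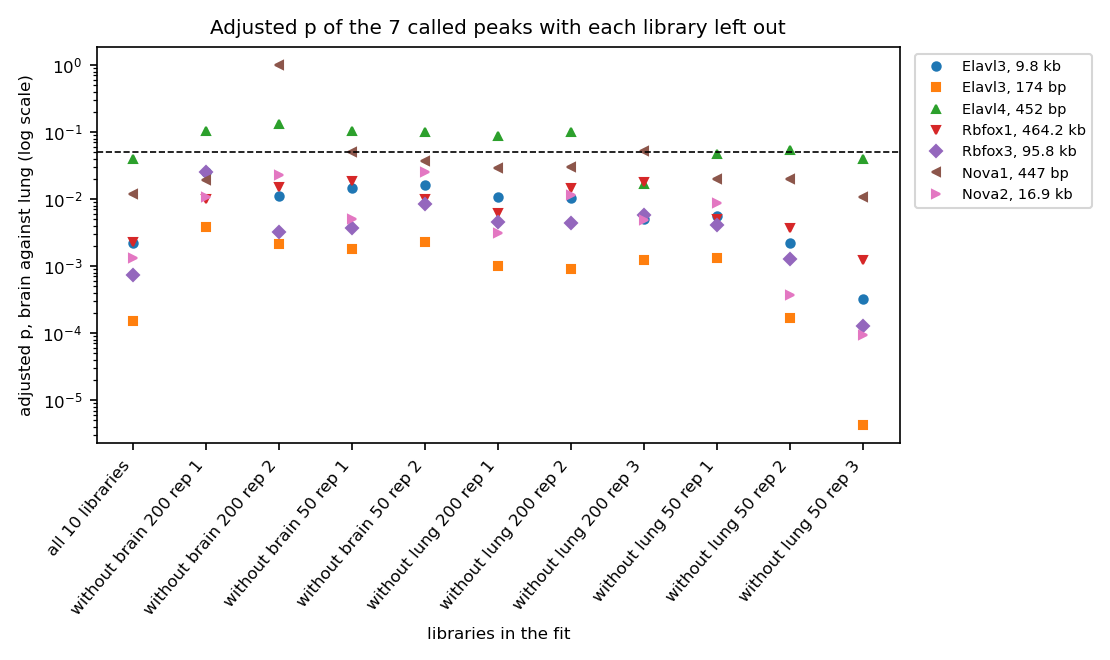
Adjusted p of brain against lung for each of the 7 called peaks, on a log axis, with all 10 libraries and with each library left out in turn. The dashed line is the threshold of 0.05; only Elavl4 and the small Nova1 peak have points above it.

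Genes with a pattern like Elavl3 or Rbfox3 were looked for by Pearson's r of log2(RPM + 1) of summed peaks over the 10 libraries, among 12220 genes with at least 50 reads. The libraries share depth and tissue, so r is a description only. For Elavl3 the nearest were Slc38a3, a glutamine transporter gene (r = 0.987), Pou3f2, a neural transcription factor gene (r = 0.982) and Stmn4, a neuronal stathmin gene (r = 0.980). Slc38a3 was at 64.9 ± 9.55 RPM in brain and 0.271 ± 0.664 RPM in lung. For Rbfox3, whose summed peaks did not separate the tissues, they were Dhx34 (r = 0.953), Sh2d6 (r = 0.931) and Il2rg (r = 0.916). No such search was possible for Elavl1, which had no peak by the rule.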

How the data were processed

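The deposited table holds whole-number read counts for 37513 peaks in 10 libraries, made by the authors and not normalized. Per the submitters' processing notes the build was mm10 and the tools included Bowtie2 2.4.5 and MACS2 2.2.7.1. Neither labels nor notes state how peaks were merged, if fragments or reads were counted, if duplicates were removed or if reads were shifted for Tn5. Kept duplicates would widen the spread between libraries of few nuclei. Peak coordinates are printed as deposited.

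Peaks were assigned to RefSeq genes of GRCm38.p6 (28754 of 37511 nuclear peaks, over 12672 genes; 5777 had several genes in reach). The gene table gives no exons, so gene body and flank are distinguished only. Counts of the 37466 peaks with at least 10 reads went into the quasi-likelihood F test of edgeR 4.0.16 (TMM, 1 mean per tissue and size, all 10 libraries sharing the spread; biological coefficient of variation 0.591) in R 4.3.3, adjusted by Benjamini-Hochberg over all peaks, with a threshold of 0.05. All 29 peaks passed the filter. The Elavl3 promoter peak and the called peaks of Rbfox1, Rbfox3 and Nova1 passed it only through brain. They had 0, 1, 0 and 2 reads in lung, in that order. Their low lung counts are therefore not support beyond the calls themselves. The 2 mitochondrial peaks stayed in this fit and in its library sizes, unlike in RPM and in the sums per gene. With them removed first, 6 of the 29 were again higher in brain and 1 in lung. SE is the log2 fold divided by the root of F. A size-averaged fold at a peak with a group at 0 depends on the prior count. On simulated counts the peak test called 0 of 49 peaks with a true log2 fold of 1 and 13 of 49 with 2. It called 48 of 50 with 4, 43 of 50 with -4 and 6 of 37225 with no difference. True log2 folds of 1 or 2 can thus go uncalled. The simulation used 1 dispersion of 0.35 for all peaks and no mitochondrial reads, unlike the fit. Its changed peaks were drawn at random from the nuclear peaks tested. All tested peaks had a median of 120 reads. The 6 peaks higher in brain held 17 to 53 reads, so these rates need not hold for them. DESeq2 1.42.0, other scalings, filters, thinning to 319307 nuclear reads, other reaches, a replicate block and leaving out libraries were the alternatives. The deviations of same-numbered libraries of different groups had an r of -0.03 to 0.02 over 13 pairs. This cannot decide on pairing, because peaks hold few reads per library. In groups of 2 libraries the deviations also mirror each other, so the pairs are not independent.

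The genes and lists were chosen with earlier results of these data known. Named in full are all called peaks and, per gene, the peak with most reads and the one nearest a listed start; of the lists, the 4 genes of lowest p.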

Additional observations from a re-analysis of the deposited data

Results flagged for a closer look

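At 17 named peaks, 32 groups of brain or lung libraries were examined for a single library far from the others, and 4 were flagged. Chance flags about 1 group in 20 only where values spread normally. That rate does not hold for groups mostly at 0, such as the lung groups of the Elavl3, Elavl4 and Rbfox1 peaks below. There a few reads in a single library are enough for a flag. In the peak shared by Elavl1 and Ccl25, replicate 3 of lung at 50 nuclei was at 9.13 RPM, far below the other lung libraries. In the Elavl3 peak inside the gene, replicate 3 of lung at 200 nuclei was at 3.58 RPM, above the other 5 lung libraries. In the Elavl4 peak the same library was at 3.25 RPM, with the other 5 at 0. In the Rbfox1 peak at 6348980, replicate 1 of lung at 200 nuclei was at 0.554 RPM, with the other 5 at 0.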

How the results depend on the processing

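RPM near 1 read limits what can be seen: a brain read is worth 2.15 to 3.13 RPM. Keeping peaks with at least 1 read, nuclear totals, RLE size factors and thinning reversed none of the 17 named peaks, and filterByExpr none of the 11 it kept; a reach of 1 or 10 kb changes which peaks are counted, not their folds. The median log2 fold over all peaks, 0.07, became 0.16 with RLE size factors and 0.21 with thinning. Scaling by all-peak totals, mitochondria included, took it to -3.34, with 252 peaks higher in brain and 30079 in lung.

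Against 6 peaks higher in brain, all-peak totals gave 3 and filterByExpr 0; against 1 higher in lung, all-peak totals gave 16, DESeq2 2 and leaving out replicates 2 and 3 of lung at 50 nuclei 3. Against 1 gene on summed peaks, all-peak totals gave 6, DESeq2 3, thinning 2, these 2 libraries left out 4, a reach of 1 kb 2, and every peak in reach 2. Against 1 peak at 50 nuclei, RLE size factors and nuclear totals gave 2, all-peak totals 11, filterByExpr 0, DESeq2 3, thinning 2 and these 2 libraries left out 4. Against 3 at 200 nuclei, all-peak totals gave 20, filterByExpr 1, DESeq2 6, thinning 1 and these 2 libraries left out 8. With the replicate block, 5 peaks were higher in brain, 1 in lung, 2 genes were called, and 1 and 0 peaks at 200 and 50 nuclei. Of all peaks, all-peak totals put 0.673% higher in brain and 80.3% in lung, and the replicate block 2.59% and 2.83%. The share higher in brain was 2.43% with filterByExpr, and that higher in lung was 5.68% with DESeq2. Shares of all genes, and of all peaks at each size, are not given here for these settings. Whether equal numbers pair the libraries cannot be told from the r of -0.03 to 0.02, because peaks hold few reads per library.

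Leaving out 1 library gave 4 to 10 peaks higher in brain, 1 to 2 in lung, 1 to 4 genes, 0 to 5 peaks at 50 nuclei and 0 to 6 at 200 nuclei. It moved the fold of the peak shared by Elavl1 and Ccl25 between -0.41 and 0.21 and that of the highest Rbfox2 peak between -0.0195 and 0.19. All-peak totals reversed the log2 folds of the peaks of Elavl2 (-1.56), Rbfox1 (-1.74 at 6889348 and -2.84 at 7099821), Rbfox2 (-3.42 at 77306543), Celf4 (-1.61), Nova1 (-2.89 at 46819393) and Nova2 (-2.70 at 18925239). Without replicates 2 and 3 of lung at 50 nuclei Rbfox1 at 7099821 was at -0.33. Apart from the filters, the scale and the libraries left out, the cause was not tested.

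Over the whole table, against 2166 peaks higher in brain and 1630 in lung, DESeq2 gave 3386 and 2127, the replicate block 969 and 1059, thinning 2591 and 1341, and leaving out replicate 1 of lung at 50 nuclei 5233 and 1787. With filterByExpr, 2.43% of the 34136 peaks kept were higher in brain and 3.53% in lung.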
